A study of Mus musculus with 2 samples.

Results

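The genes described here encode the nuclear subunits of the mitochondrial respiratory chain and of ATP synthase. They were chosen by name: a probe set was taken when the array annotation gave it a single gene whose current or older symbol began with Ndufa, Ndufb, Ndufc, Ndufs, Ndufv, Uqcr, Cox4 to Cox8 or Atp5, or was Sdha, Sdhb, Sdhc, Sdhd, Cycs or Cyc1. This gave 165 of the 22690 probe sets on the array and 90 of its 12393 named genes. Of the 90 genes, 81 are subunits: 33 of complex I, 4 of complex II, 9 of complex III, 17 of complex IV, 17 of complex V, and cytochrome c. The names also brought in 7 assembly factors, the ATP synthase inhibitor Atpif1, and Emc8, a gene of the endoplasmic reticulum whose older symbol Cox4nb fits the rule but which is no subunit. No signal entered the choice.

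Electrons from NADH and succinate enter the chain at complexes I and II, pass through ubiquinone to complex III, then through cytochrome c to complex IV, cytochrome oxidase, where oxygen is reduced. Complexes I, III and IV pump protons across the inner membrane, and ATP synthase, complex V, lets them back and makes ATP. Most nuclear subunits are made in nearly every cell, but several subunits of cytochrome oxidase exist as a widely expressed form and a form kept to heart, skeletal muscle, brown fat, lung or testis.

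Both groups were female wild-type FVB mice that had received 15 mg of medroxyprogesterone acetate, a long-acting progestin, and 4 doses of 1 mg of the carcinogen DMBA by gavage. One group then ate a diet with 0.1% GW9662, an irreversible PPARγ antagonist, starting 1 day after the last DMBA dose, and the control group ate standard rodent chow. For each diet, whole mammary tumor RNA of 5 mice made 1 pool and was hybridized to 1 Affymetrix array, so the comparison rests on 2 arrays. With 1 array per diet no test was possible, mouse, tumor and array cannot be told apart as sources of a difference, and all differences below are sizes.

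The signals are linear intensities, and the 2% trimmed mean was 500.0 on both the GW9662 and the control array. Where a gene had several probe sets, the brightest by the mean of both arrays was used. Counts of genes that differ by a given fold take only the 6053 genes that reached a signal of 300 on at least 1 array. A dim signal below 100 was replaced by 100 for the fold, which is then a bound written as at least N-fold, and genes below 100 on both arrays have no fold. Luminal epithelial markers were present on both arrays, as for Krt8, a keratin of luminal cells (GW9662 9665, control 9496). The luminal transcription factor Elf5 was 2.03-fold lower on the GW9662 array, with 2040.0, against 4138 on the control array, while Foxa1, another such factor, was 1.31-fold higher (GW9662 3993, control 3037.5). The sums of the 9 luminal markers were close, at 46621 on the GW9662 array and 46620.2 on the control array. These sums rest mostly on the brightest genes, and of the 9 markers 6 were higher and 3 lower on the GW9662 array. Fat and muscle markers differed far more. In GW9662 tumors all 8 adipocyte markers were lower by 3-fold or more, summing to 4856 on the GW9662 array, against 40746 on the control array. The 16 skeletal muscle markers summed to 1534 on the GW9662 array and 13022 on the control array.

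Cox8b was the only subunit gene with the signal minimum that differed by 3-fold. It encodes the form of the small cytochrome oxidase subunit VIII that is made in heart, skeletal muscle and brown fat of rodents. Its signal was 9.1 on the GW9662 array and 1136 on the control array, at least 11.4-fold lower in GW9662 tumors. The widely expressed form of the same subunit, Cox8a, had signals of 5191 on the GW9662 array and 4823 on the control array, a log2 ratio of 0.11. The large difference in Cox8b was thus not accompanied by a difference of that size in its partner. A form of this subunit made in testis, Cox8c, was below 100 on both arrays (GW9662 79.5, control 66.3).

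The promoters of both subunit VIII forms and of the subunit VIIa pair below are shown because Cox8b carries the largest difference and Cox7a1 is the other muscle form with a promoter sequence to hand. The sequences are from RefSeq, mouse assembly GRCm38.p6, 250 bases before to 50 bases after the annotated start, read 5′ to 3′ on the gene's strand. Capitals mark matches to 6 motifs searched on both strands: the E-box CANNTG, its form CAGCTG, the GABP (ETS) site CCGGAAG, the ERR element TCAAGGTCA, and the MEF2 and NRF-1 sites. The form CAGCTG overlaps the E-box and was added after the sequences were seen.
Cox8b, chr7:140900397-140900696, minus strand: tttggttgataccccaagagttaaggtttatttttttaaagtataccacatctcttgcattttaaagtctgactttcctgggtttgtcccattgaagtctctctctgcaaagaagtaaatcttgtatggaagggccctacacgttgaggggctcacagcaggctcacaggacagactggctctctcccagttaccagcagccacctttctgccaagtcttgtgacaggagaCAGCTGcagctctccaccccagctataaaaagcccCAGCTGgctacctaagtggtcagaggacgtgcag
Cox8a, chr19:7217567-7217866, minus strand: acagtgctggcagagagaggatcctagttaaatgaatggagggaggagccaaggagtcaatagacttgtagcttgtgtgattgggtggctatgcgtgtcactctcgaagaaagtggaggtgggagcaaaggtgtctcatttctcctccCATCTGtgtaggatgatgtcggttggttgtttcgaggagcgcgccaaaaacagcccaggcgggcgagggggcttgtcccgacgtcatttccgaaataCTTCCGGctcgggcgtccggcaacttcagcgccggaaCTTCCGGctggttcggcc
Cox7a1, chr7:30183921-30184220, plus strand: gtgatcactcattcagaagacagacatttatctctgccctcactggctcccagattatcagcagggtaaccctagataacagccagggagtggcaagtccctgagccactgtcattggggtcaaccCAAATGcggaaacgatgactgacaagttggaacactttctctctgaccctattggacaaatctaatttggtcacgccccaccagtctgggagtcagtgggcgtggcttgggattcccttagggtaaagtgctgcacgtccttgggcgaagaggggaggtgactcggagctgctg
Cox7a2, chr9:79759804-79760103, minus strand: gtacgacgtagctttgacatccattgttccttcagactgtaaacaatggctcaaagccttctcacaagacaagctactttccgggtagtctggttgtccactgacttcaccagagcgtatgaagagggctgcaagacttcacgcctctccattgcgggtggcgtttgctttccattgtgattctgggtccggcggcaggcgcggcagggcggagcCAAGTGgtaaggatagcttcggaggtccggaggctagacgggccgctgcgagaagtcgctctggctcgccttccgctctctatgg

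The Cox8b promoter held the E-box form CAGCTG 2 times, with first bases at -19 and 16 counted from the first base after the 250 upstream bases. That form was present in 16.3% of the 32851 promoters in the table and was present at least 2 times in 1.90% of them. The Cox8a promoter held the GABP site 2 times, at -5 and 32, both as the reverse strand's letters, and an E-box at -102. GABP sites were present in 8.86% of all promoters and at least 2 times in 1.48%. The Cox7a1 promoter held 1 E-box at -124 and the Cox7a2 promoter 1 at -35, and E-boxes of any form were present in 72.3% of all promoters. Among 68 promoters of 63 subunit genes without the tissue-restricted isoforms, 17 (25%) held the GABP site, 11 (16.2%) the NRF-1 site, present in 2.72% of all promoters, 2 (2.94%) the ERR element, present in 0.423%, and none the MEF2 site, present in 0.557%. These matches are letters in a window and say nothing of which factor binds there.

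The other forms kept to muscle were lower in GW9662 tumors too, but stayed below the signal minimum. Cox6a2, the heart and skeletal muscle form of subunit VIa, had signals of 49.8 on the GW9662 array and 214 on the control array, at least 2.14-fold lower. Its widely expressed partner Cox6a1 had 8146 on the GW9662 array and 9345 on the control array, a log2 ratio of -0.20, while its other probe set gave 6446 on the GW9662 array and 5907 on the control array. Cox6a1 therefore had no single direction. Cox7a1, the muscle and brown fat form of subunit VIIa, was 1.54-fold lower with signals of 150.3 on the GW9662 array and 232 on the control array. Its partner Cox7a2 was bright on both arrays, with 10459 on the GW9662 array and 9181 on the control array, and Cox7a2l, a related protein that joins complexes III and IV into supercomplexes, had 4409 on the GW9662 array and 3686 on the control array.

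The isoforms of lung and testis gave 1 readable difference. Cox6b2, the testis form of subunit VIb, was 1.60-fold higher on the GW9662 array (GW9662 292, control 183), below the signal minimum, and its partner Cox6b1 had a log2 ratio of 0.07 (GW9662 9122, control 8717). Cox4i2, the lung form of subunit IV, was below 100 on both arrays (GW9662 14.5, control 27.5), and its partner Cox4i1 had 8943 on the GW9662 array and 8635 on the control array. The 6 tissue-restricted isoforms had a median log2 ratio of -0.78, or -0.31 with signals below 100 read as 100, and their 5 partners a median of 0.07. The pairs Cox7b2 with Cox7b and Ndufa4l2 with Ndufa4 were not analysed here, since only Ndufa4 was read.

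**Figure D1:**
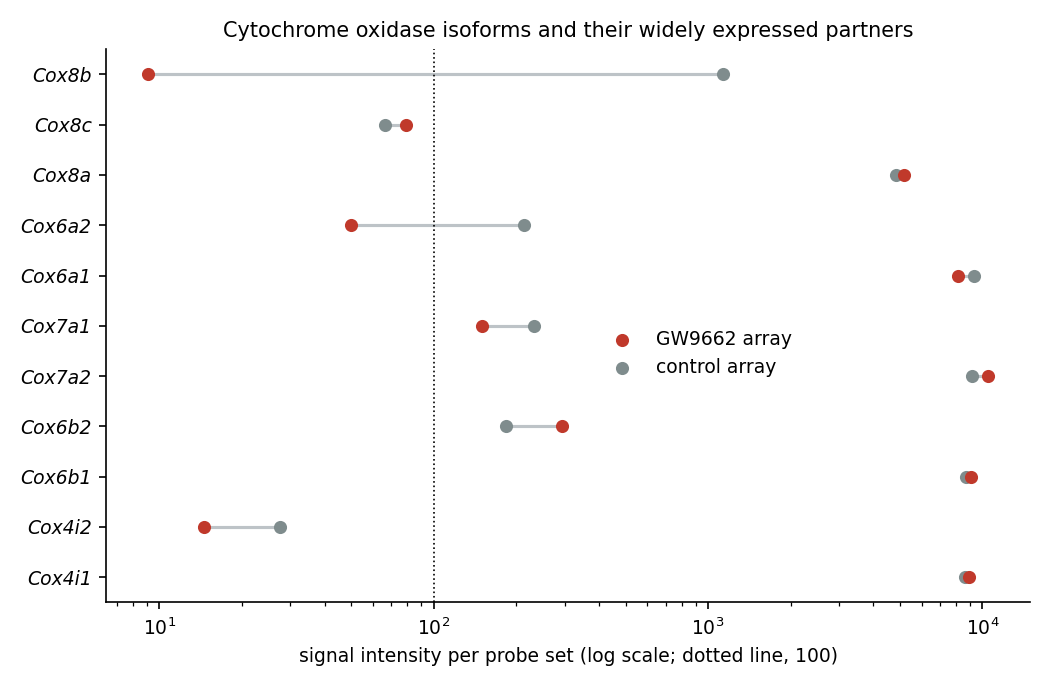
Signal intensity of each cytochrome oxidase isoform on the GW9662 array (red) and the control array (grey), on a log axis, with tissue-restricted forms above their widely expressed partners. Cox8b spans from 9.1 on the GW9662 array to 1136 on the control array, while the 2 points of each partner lie close together, as for Cox8a (GW9662 5191, control 4823).

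The muscle isoforms are made by tissues whose own markers differed between the arrays. Among skeletal muscle markers, 12 of 16 reached a signal of 100 on either array and all 12 were lower on the GW9662 array, such as the creatine kinase Ckm (GW9662 91.7, control 1247) and the skeletal actin Acta1 (GW9662 285, control 2488). The sum of all 16 on the GW9662 array was 11.8% of that on the control array. Of 5 brown adipocyte markers measured, the lipid droplet protein Cidea was at least 7.1-fold lower (GW9662 45.3, control 710.2), the uncoupling protein Ucp1 was below 100 on both arrays (GW9662 1.9, control 76.2), and the deiodinase Dio2 was alike on both, with a log2 ratio of 0.00. All 6 cardiac muscle markers were below 100 on both arrays, summing to 137 on the GW9662 array and 97.0 on the control array. The part of muscle and fat RNA in the Cox8b, Cox6a2 and Cox7a1 values was not tested, and in pooled whole tumors fewer cells of a type and less RNA per cell cannot be told apart.

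Subunits that are made in nearly every cell differed little between the diets. Without the tissue-restricted isoforms, 72 subunits had the signal minimum. Of these, 0 differed by 2-fold, and at 1.5-fold 1 was lower, Ndufv1, and 0 were higher. The counts that follow take all 79 members with the signal minimum, subunits or not. Of the 79, 1, Cox8b, was lower by at least 3-fold in GW9662 tumors and 0 were higher by as much. The shares among all 6053 genes were 2.68% and 0.215%, and counts this small cannot be set apart from them. At 2-fold, 1 was lower and 0 were higher, against 4.68% lower and 1.02% higher among all genes. At 1.5-fold, 3 were lower, Cox8b, Ndufv1 and Ndufaf1, and 0 were higher, against 9.8% lower and 6.41% higher among all genes. Bright genes differed by 1.5-fold less often than all genes. With a mean signal of at least 3000, 30 of 578 other genes were lower by as much and 9 higher. Of the 55 subunits this bright, 0 were lower and 0 higher by 1.5-fold. Of the 90 members, 79 reached the signal minimum, among them 73 of the 81 subunits. The 8 subunits that did not were Ndufs5, Ndufb1, Cox6a2, Cox4i2, Cox7a1, Cox8c, Cox6b2 and Cox7c.

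Most subunits were slightly brighter on the GW9662 array. Of the 73 subunits with the signal minimum, 57 (78.1%) were brighter on the GW9662 array and 16 dimmer, against 54.8% higher among all 6053 genes. The median log2 ratio of all 81 subunits was 0.13 with quartiles of 0.02 and 0.24, while over all 12393 genes it was 0.00 with quartiles of -0.36 and 0.31. Subunit genes are bright, and bright genes in general leaned the same way. Among genes with a mean signal of at least 3000, 47 of 55 subunits (85.5%) were higher with a median of 0.14, and 347 of 578 other genes (60.0%) were higher with a median of 0.07.

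The sizes were close to the spread between probe sets of the same gene. That spread, an SD of the log2 ratio over 41 members read by 2 or more probe sets with a mean signal of 100 and above, was 0.15 for members and 0.36 over 2639 genes of the whole array. Without the tissue-restricted isoforms, 37 of 75 subunits lay within 0.15 of a ratio of 0, 32 lay above and 6 below. The spread holds no variation between mice or tumors.

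**Figure D2:**
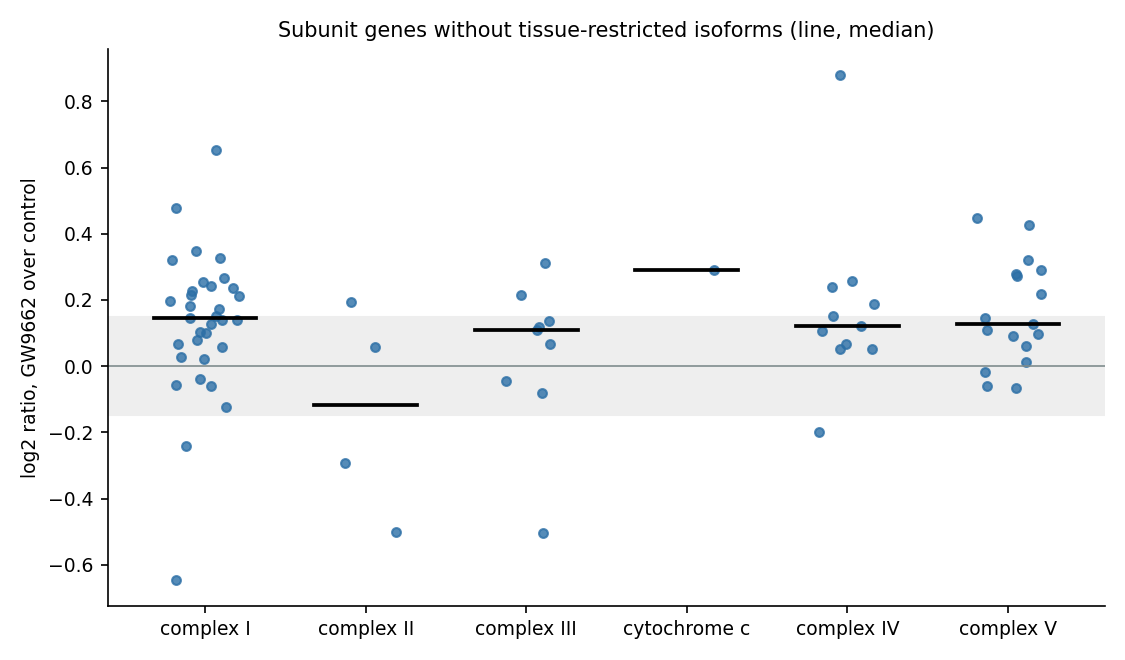
Log2 ratio of GW9662 over control for each subunit gene without the tissue-restricted isoforms, by complex, with points spread sideways for legibility, a black line at each median and a grey band of 1 SD of the ratio within a gene (0.15) on either side of 0. Medians of complexes I, III, IV and V lie above 0 and that of complex II, with 4 genes, lies at -0.12.

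Complex I, the NADH dehydrogenase, had 27 of its 33 genes higher on the GW9662 array and 6 lower, with a median log2 ratio of 0.15. With the signal minimum, 25 of 31 complex I genes (80.6%) were higher. For this count and those of the complexes below, the share higher was 54.8% among all 6053 genes with that minimum. It was 60.0% among other genes with a mean signal of at least 3000. The core subunits carry the flavin and the iron-sulfur clusters, and 6 of them were read. Ndufv1, which binds the flavin and takes electrons from NADH, was 1.57-fold lower, with signals of 1467 on the GW9662 array and 2297.5 on the control array. The size depended on the probe set, since the other probe sets of Ndufv1 gave 1618 and 1092 on the GW9662 array against 1745 and 1142 on the control array. All 3 probe sets were lower on the GW9662 array.

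Among the remaining core subunits, the large iron-sulfur protein Ndufs1 had 1071 on the GW9662 array and 1166 on the control array. Its iron-sulfur neighbour Ndufv2 had 4564 on the GW9662 array and 3856 on the control array, a log2 ratio of 0.24. Ndufs3, Ndufs7 and Ndufs8, of the arm that leads to ubiquinone, had log2 ratios of 0.02, 0.06 and 0.10. Ndufs8 was read by 6 probe sets and all 6 were higher on the GW9662 array, by 0.10 to 0.47. Over the 6 core genes, 4 higher and 2 lower, the median was 0.04.

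The 27 supernumerary subunits, which surround the core and take no direct part in electron transfer, divided into 23 higher and 4 lower, and their median was 0.17. Ndufs4, an accessory subunit of the NADH-binding arm, had 2382 on the GW9662 array and 1710 on the control array, a log2 ratio of 0.48. A further probe set had 551 on the GW9662 array and 423 on the control array. The dimmest showed no difference (GW9662 101.8, control 101.7). Ndufb2 of the membrane arm had 3180.5 on the GW9662 array and 2501 on the control array. Ndufb1, also of the membrane arm, was 1.57-fold higher but dim (GW9662 244, control 155).

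The complex I genes named for the highest mean signal over both arrays were the membrane-anchored Ndufa1, Ndufb9 of the membrane arm, and Ndufa7. Ndufa1 had a log2 ratio of -0.06 (GW9662 6850.2, control 7136), Ndufb9 one of 0.07 (GW9662 5755, control 5489) and Ndufa7 one of 0.27 (GW9662 6048, control 5026). The lowest supernumerary gene was Ndufv3, which sits beside the flavin subunit, with 1855 on the GW9662 array and 2195 on the control array. Its log2 ratio was -0.24, so no supernumerary gene was 1.5-fold lower.

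Complex II, succinate dehydrogenase, was the complex with a median below 0. Sdha, the flavoprotein that oxidizes succinate, had 2014 on the GW9662 array and 2466 on the control array, and its other probe set was lower too (GW9662 1401, control 1883). Sdhc, a membrane anchor, was 1.41-fold lower with 1153 on the GW9662 array and 1631 on the control array, but its other probe set had 415 on the GW9662 array and 383 on the control array. Among the probe sets used for the spread above, this was the widest disagreement within a member, 0.62 on the log2 scale. The iron-sulfur subunit Sdhb (GW9662 4132, control 3967) and the anchor Sdhd (GW9662 2293, control 2005) were on the higher side, so the 4 genes divided evenly.

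In complex III, the cytochrome bc1 complex, 6 of 9 genes were higher on the GW9662 array and 3 lower, with a median of 0.11. That share of 66.7% was near the 60.0% of other bright genes. Uqcrc1, a core protein of the matrix side, was 1.42-fold lower at its single probe set, with 2747 on the GW9662 array and 3899 on the control array. Its partner core protein Uqcrc2 went both ways, with 3731 on the GW9662 array and 3459 on the control array at the brighter probe set and 2756 on the GW9662 array and 3357.5 on the control array at the other. The redox subunits differed little: Cyc1, the cytochrome that hands electrons to cytochrome c, had a log2 ratio of 0.12, and the Rieske iron-sulfur protein Uqcrfs1 had one of -0.08. Among the small subunits Uqcr10 was the highest (GW9662 3043, control 2453), followed by the hinge protein Uqcrh (GW9662 6061.5, control 5216.5) and Uqcrq (GW9662 3251, control 2957). Uqcr11 had a log2 ratio of 0.07 and Uqcrb one of -0.05 (GW9662 11343, control 11704). Cytochrome c itself, Cycs, which ferries electrons to complex IV, was 1.22-fold higher with 6907 on the GW9662 array and 5647 on the control array, and all 3 of its probe sets were higher.

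The 5 other complex IV genes, Cox5a, Cox5b, Cox6c, Cox7c and Ndufa4, were all on the higher side. Cox5a and Cox5b, both matrix subunits, and the membrane subunit Cox6c had log2 ratios of 0.24, 0.05 and 0.15. Ndufa4, first assigned to complex I and now placed in cytochrome oxidase, had 6237 on the GW9662 array and 5727 on the control array. Cox7c was read only at dim probe sets, the brighter with 186.6 on the GW9662 array and 101.3 on the control array. Its ratio of 1.84 was the highest of any member, at signals below the minimum.

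ATP synthase had 14 of 17 genes higher on the GW9662 array and 3 lower, with a median of 0.13. All 17 reached the signal minimum. In the F1 head, where ATP is made, the catalytic subunit Atp5b had 6164.5 on the GW9662 array and 6450.4 on the control array, and its partner Atp5a1 had 4565 on the GW9662 array and 4763 on the control array. Atp5a1 was lower on the GW9662 array at all 3 of its probe sets, by 0.06 to 0.35 on the log2 scale. The rotor shaft Atp5c1 had 7512 on the GW9662 array and 7447 on the control array, and Atp5d and Atp5e at its foot had log2 ratios of 0.06 and 0.11.

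The c ring, which turns as protons pass, is built from one mature protein encoded by 3 genes. Atp5g1 was 1.34-fold higher, with 3421 on the GW9662 array and 2544 on the control array, and Atp5g2 had 5170 on the GW9662 array and 4264 on the control array. Atp5g3 did not share this difference (GW9662 7798, control 7888). The 4 peripheral stalk genes, which hold the head still, were all higher with a median of 0.11, among them Atp5pb (GW9662 8091, control 7560). The 5 accessory subunits of the membrane part were all higher with a median of 0.27, led by Atp5md (GW9662 5046, control 3698, 1.36-fold) and Atp5mpl (GW9662 3684, control 2952.5). The roles within complexes III and V were assigned from textbook knowledge after the values had been seen, and differences between these small sets were not tested.

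**Figure D3:**
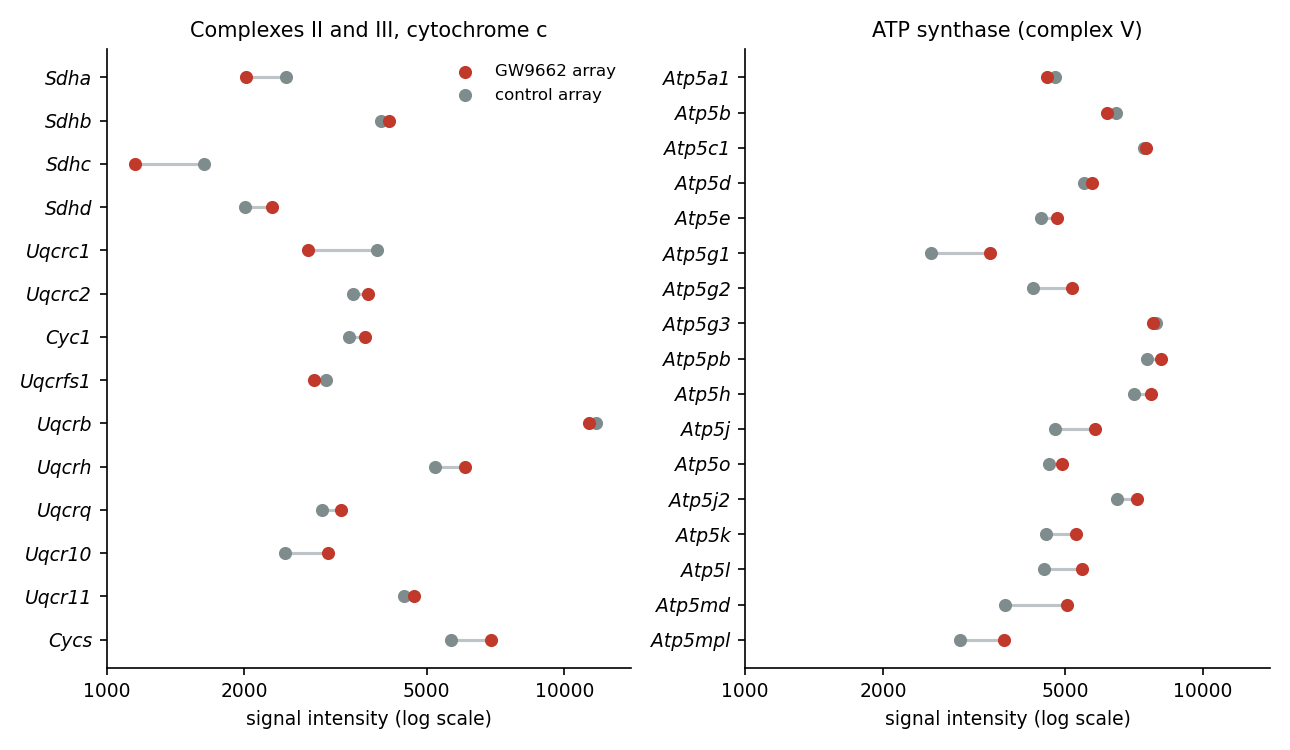
Signal intensity of each gene of complexes II and III and cytochrome c (left) and of ATP synthase (right) on the GW9662 array (red) and the control array (grey), on log axes. Sdha, Sdhc and Uqcrc1 have the GW9662 point clearly left of the control point, while the membrane accessory subunits Atp5j2, Atp5k, Atp5l, Atp5md and Atp5mpl have it to the right.

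Probe sets of the same gene mostly gave the same direction. Only the probe sets used for the spread above were counted. Of the same 41 members, 34 had all of these higher on the GW9662 array, 3 had all lower and 4 were mixed. The 3 were Ndufv1, Sdha and Atp5a1, and the 4 were Sdhc, Uqcrc2, Uqcrb and Cox6a1. The median range of the log2 ratio within a gene was 0.13, and after Sdhc the widest ranges were those of Ndufv1 (0.58), Ndufs4 (0.48) and Uqcrc2 (0.39). Among the probe sets counted, no member had a range above 1. Some dimmer probe sets lay further apart, as for Cox5b, with a log2 ratio of 0.05 at its brightest probe set and 2.27 at a dim one (GW9662 27.9, control 5.8).

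**Figure D4:**
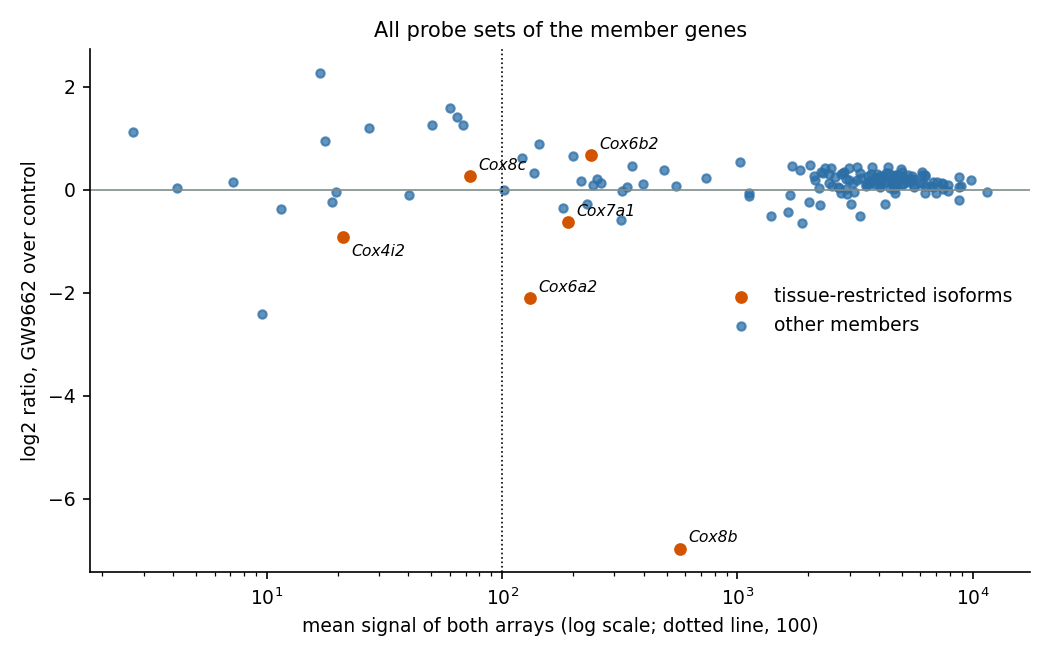
Log2 ratio of GW9662 over control against the mean signal of both arrays (log axis) for all 165 probe sets of the members, with the tissue-restricted isoforms in orange and a dotted line at 100. Above a mean signal of 1000 the blue points lie in a narrow band around 0, the scatter widens below 100, and Cox8b has the lowest point, which rests on a GW9662 signal of 9.1 and is no measured size, its bound being 11.4-fold.

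The members that are no subunits had mixed directions. Ndufaf1, an assembly factor of the complex I membrane arm, was 1.51-fold lower (GW9662 255.5, control 386), while Ndufaf3, another complex I assembly factor, had 788 on the GW9662 array and 676.5 on the control array. The 7 assembly factors among the members divided into 4 higher and 3 lower, with a median of 0.08. Atpif1, which blocks ATP hydrolysis by ATP synthase, had 4981 on the GW9662 array and 4083 on the control array. Emc8 had 1216 on the GW9662 array and 838 on the control array.

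Other assembly factors, listed by function, showed the same mixture. Of 28 measured of 38 listed, 17 were higher and 11 lower with a median of 0.08. The outer values were Cox15, an enzyme of heme A synthesis that was 2.18-fold higher (GW9662 379, control 174), and Ecsit, a complex I assembly factor that was 1.66-fold lower (GW9662 232, control 385). The copper chaperone Cox17 had 3503 on the GW9662 array and 2561 on the control array.

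Regulators of mitochondrial gene expression were mostly on the higher side. Of 14 that reached a signal of 100, 13 were higher and 1 was lower, with a median of 0.14. With the signal minimum, 7 of 8 were higher, against 54.8% of all genes. The median was small, within the 0.15 spread between probe sets of a member gene, which was 0.36 over the whole array. Single genes differed more. Ssbp1 was 1.44-fold higher (GW9662 5077, control 3533), and Nrf1 was dim and at least 1.46-fold higher (GW9662 145.7, control 73.6). The 1 lower gene was Tfb2m (GW9662 418, control 516). Tfam, which packages and transcribes mitochondrial DNA, had 1033 on the GW9662 array and 931 on the control array, and Gabpa, the DNA-binding subunit of GABP, had 1022 on the GW9662 array and 758 on the control array. Esrra, the receptor ERRα, was alike on both arrays (GW9662 408, control 404). The coactivator Ppargc1a was below 100 on both arrays (GW9662 49.9, control 51.8).

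Other mitochondrial genes placed the subunits among their neighbours. Of 74 mitochondrial ribosomal protein genes, 65 were higher and 9 lower, and their median was 0.30. With the signal minimum, 65 of 73 (89.0%) were higher, against 54.8% of all genes, and 6 of 73 were at least 1.5-fold higher, a share near the 6.41% of all genes, led by Mrpl21 (GW9662 1211, control 629). That median was above the 0.13 of the subunits, and the difference was not tested. The ATP/ADP carriers that exchange the product of ATP synthase were alike or nearly so, Slc25a4 with 5169 on the GW9662 array and 5173 on the control array and Slc25a5 with 7028 on the GW9662 array and 6639 on the control array. Citrate synthase, Cs, often taken as a measure of mitochondrial content, had 2804 on the GW9662 array and 2598 on the control array. Of 16 such content genes, 9 were higher and 7 lower, with the fusion proteins Mfn1 (GW9662 749, control 583) and Mfn2 (GW9662 455.5, control 800.5) on opposite sides.

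Markers of cell types and of cell division also differed between the same arrays. All 4 proliferation markers measured were higher, with a sum on the GW9662 array that was 170% of that on the control array and a median log2 ratio of 0.71, among them the mitotic kinase Cdk1 (GW9662 1825.5, control 920.5). The 5 endothelial markers were all lower with a median of -0.66, and 5 of 6 fibroblast markers were lower with a median of -0.50. The part of these differences in the ratios of the subunits was not tested.

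**Figure D5:**
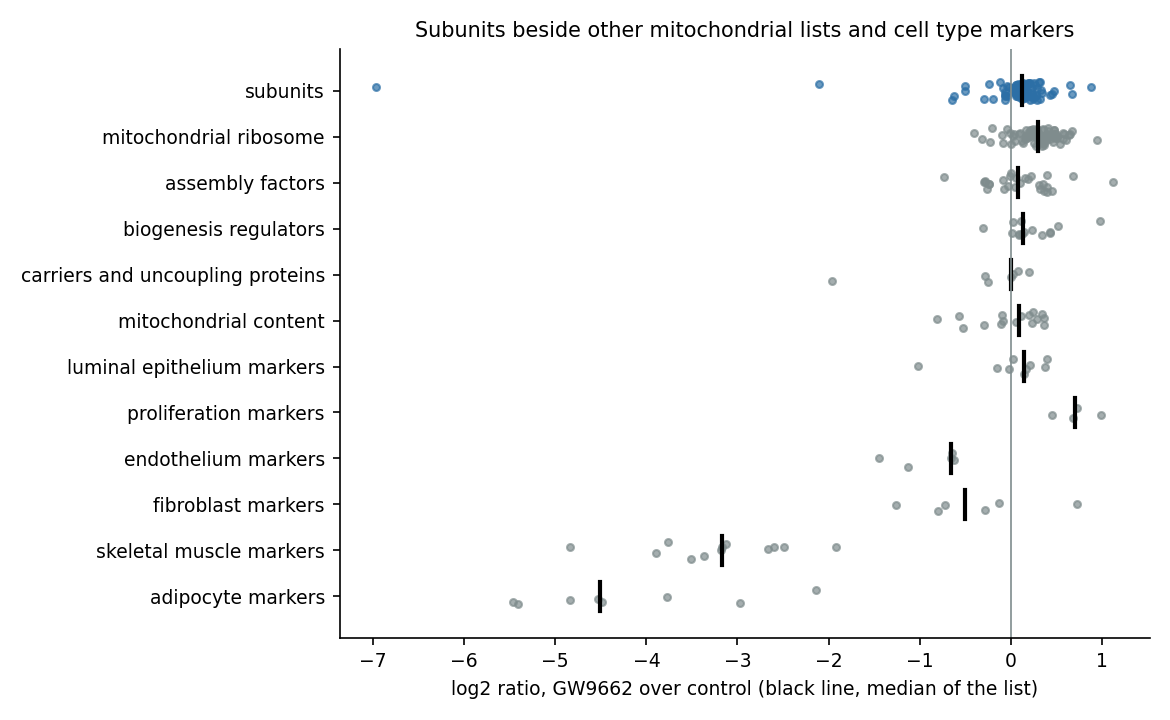
Log2 ratio of GW9662 over control for subunit genes (blue) and for other mitochondrial lists and cell type markers (grey), for genes that reached 100 on at least 1 array, with a black line at each median. Most subunits lie near 0, with Cox8b and Cox6a2 lowest and Cox7c highest at 0.88, and the skeletal muscle and adipocyte markers lie far below 0.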

How the data were processed

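Tumor RNA pooled from 5 mice per diet was hybridized to 1 Affymetrix array per diet. According to the methods, the authors labelled cRNA with biotin and generated data with GeneChip Operating Software. Each deposited value is the signal intensity of a probe set on a linear scale, and these values were used unscaled. Signal algorithm, scaling and detection calls: not given in the sources used here. Lower bounds rest on a floor of 100 for that reason. Array depth does not apply, and 2 arrays limit the precision.

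Probe sets were named from the platform annotation with symbols updated by RefSeq gene identifier, which matched all 90 members. Of 22690 probe sets, 20380 had 1 gene, and 691 with several genes, 8 of them holding a name of the rule, were left out. Thresholds of 3-fold and a signal of 300 follow the methods. Log2 ratios are GW9662 over control.

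Members, gene lists and comparisons were chosen with earlier results of these data known. Named genes were the isoform pairs, the 3 brightest by mean signal, 3 highest and 3 lowest genes of each complex, and members at least 2-fold different. Genes named beyond these (the other complex I core, complex IV and ATP synthase subunits, assembly factors and list genes) were chosen after their values were seen. Counting was tested on simulated data. The software was matplotlib 3.10.9, pandas 2.3.3 and numpy 2.4.6 under Python 3.11.15. Promoters were in the RefSeq table for 74 of 90 members and for 8 of 12 isoforms and partners, not for Cox6a2, Cox4i1, Cox4i2 or Cox8c.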

Additional observations from a re-analysis of the deposited data

How the results depend on the processing

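The alternatives were a fold between 2 and 3, subunits without the other members, a signal minimum of 100 or none, centring on the median ratio, quantile normalization, signals below 100 read as 100, a pseudocount of 16, and the mean over probe sets or the probe set brightest on the control array for each gene. The number of members at least 3-fold lower in GW9662 tumors was 1, and it was 2 with a minimum of 100 and 2 with no minimum, as was the number at least 2-fold lower. The member added was Cox6a2, counted by its signals as deposited. The median log2 ratio of the tissue-specific isoforms was -0.78, against -0.31 with signals below 100 read as 100 and -0.54 with the pseudocount, since Cox4i2, below 100 on both arrays, is 1 of the middle pair. No count or median of a complex changed direction in the alternatives run. Over single named members, 244 values kept within 0.15 on the log2 scale and 20 moved further, 11 of them when probe sets were averaged, where Ndufv1 was -0.27 and Sdhc -0.19. Averaging also turned the sign of Uqcrq to -0.72, through 3 probe sets with signals below 100, and of Uqcrb to 0.11. Quantile normalization turned Atp5g3, Uqcr11 and Uqcrb, each within 0.02 of 0 afterwards. No alternative can stand in for replicate arrays, and the brightness of a probe set limits how small a difference can be read. No paired analysis was possible because each diet has 1 array.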
